A study of Mus musculus with 2 samples.

Results

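A panel of 34 genes that mark the cells of blood vessels was followed through a list of differentially methylated regions from mouse adipose progenitors. The panel held 20 genes of endothelial cells, which line the vessel, and 12 genes of mural cells, which wrap it. Of the mural genes, 5 are used for pericytes, the mural cells of capillaries, and 7 for smooth muscle cells of larger vessels. The other 2 genes, Angpt1 and Angpt2, encode the angiopoietin ligands that pass between the layers. A region was given to a member when it overlapped the RefSeq gene body or the 5 kb on either side. By this rule 80 of the 34139 regions in the list belonged to 25 of the 34 members.

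The list compares 1 bisulfite-sequenced library of CD137+ progenitors with 1 library of PDGFRα+ (CD140a) progenitors, both from C57BL/6 mouse adipose tissue. Bisulfite converts unmethylated cytosine, so that a cytosine still read as cytosine was methylated. Cells of both kinds were sorted with magnetic beads from subcutaneous or visceral fat, grown, put through an adipogenic cocktail and given dexamethasone (DEX), per the labels' protocols. Depot per library, age of the mice and number of animals pooled are not stated in the labels. Both groups had dexamethasone, so its effect cannot be told apart here. Each region carries only the authors' signed score, which has no unit and no stated definition. The PDGFRα+ sample comes first in the list's name. Should the score be PDGFRα+ minus CD137+, negative regions would be those less methylated in PDGFRα+ cells, but the order is not stated. The depth behind the scores is unknown. Each group is a single library, so differences could not be set against replicate error and no p-value is given. Whether endothelial or mural cells were present in either library cannot be read from the list, which holds neither expression values nor methylation levels.

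Endothelial identity is held by transcription factors of the ETS family, such as ERG and FLI1, and of the SOXF family (SOX7, SOX17, SOX18). These factors act on genes for vascular receptors and for the junctions that seal the vessel wall. Vascular endothelial growth factor acts through the receptors FLT1, KDR and FLT4, and the angiopoietins through TEK. In mural cells, myocardin (Myocd) works with serum response factor to switch on contractile genes. Many PDGFRα+ fat progenitors lie beside vessels. Whether cells of the vessel wall came through the sort and the culture was not tested.

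The stretches before the start sites are shown for the 4 members whose nearest region lay closest to a listed start site (0.200 kb at Tek, 0.622 kb at Des, 0.888 kb at Kdr and 1.119 kb at Kcnj8). The sequences are RefSeq's, of the GRCm38.p6 build, which mm10 names, and cover the 250 bases before the start site on the gene's own strand, 5′ to 3′. Capitals mark CpG dinucleotides, the sites at which mammalian DNA is methylated. At Tek and Kdr the annotated gene body begins before this start site, so the stretch can lie inside a longer transcript model.
Tek, GRCm38.p6 chr4:94739039-94739288, plus strand: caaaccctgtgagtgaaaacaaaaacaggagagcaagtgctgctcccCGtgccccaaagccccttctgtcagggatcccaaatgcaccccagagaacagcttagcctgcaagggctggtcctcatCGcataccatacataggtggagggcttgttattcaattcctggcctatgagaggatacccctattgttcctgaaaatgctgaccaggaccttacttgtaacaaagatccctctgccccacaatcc
Des, GRCm38.p6 chr1:75360042-75360291, plus strand: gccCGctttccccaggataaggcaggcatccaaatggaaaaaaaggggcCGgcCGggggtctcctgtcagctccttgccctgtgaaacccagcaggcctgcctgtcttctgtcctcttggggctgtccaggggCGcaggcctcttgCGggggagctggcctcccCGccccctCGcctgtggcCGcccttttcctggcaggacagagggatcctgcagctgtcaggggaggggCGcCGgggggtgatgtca
Kdr, GRCm38.p6 chr5:75978456-75978705, minus strand: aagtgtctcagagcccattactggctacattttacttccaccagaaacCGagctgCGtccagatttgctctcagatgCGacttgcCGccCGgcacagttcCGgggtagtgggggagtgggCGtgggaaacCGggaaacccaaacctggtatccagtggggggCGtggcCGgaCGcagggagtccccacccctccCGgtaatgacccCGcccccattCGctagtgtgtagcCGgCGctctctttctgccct
Kcnj8, GRCm38.p6 chr6:142571615-142571864, minus strand: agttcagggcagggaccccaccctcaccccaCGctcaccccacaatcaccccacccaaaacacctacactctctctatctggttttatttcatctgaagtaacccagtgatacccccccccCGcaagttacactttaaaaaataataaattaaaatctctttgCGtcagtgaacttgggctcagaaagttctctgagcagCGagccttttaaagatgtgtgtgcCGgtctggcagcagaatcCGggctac
The 4 stretches held 2 CpG sites at Tek, 10 at Des, 16 at Kdr and 6 at Kcnj8. None of these stretches overlapped a region (0 of the 20 members with a listed start site had a region in the 300 bases around it, against 1.02% of 17492 protein-coding genes). The regions described next to them lay downstream at Tek, Kdr and Kcnj8 and upstream at Des.

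The panel carried regions more often than protein-coding genes at large, with the higher share among mural genes. Of the 12 mural members 11 had a region (91.7%), of the 20 endothelial members 13 (65.0%), and of 21887 protein-coding genes 35.1%. Long genes have more room for regions. Among protein-coding genes in 5 classes of length, the share with a region ran from 9.09% up to 4.168 kb to 76.2% from 57.148 kb upwards. Averaged over the members' own length classes, that share was 40.3% for the mural and 44.2% for the endothelial genes, above the 35.1% of all genes but below the members' own shares. The number of regions per 100 kb of window was 4.15 for mural, 3.52 for endothelial and 1.63 for all protein-coding genes. Much of the endothelial number came from the members with the most regions, as it was 2.06 without Kdr, Flt1 and Erg. These are counts over genes chosen with earlier results of these data known, so they do not test an excess of regions. The gap between the endothelial and mural classes was not tested, because members are not replicates of a condition.

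Strong regions, taken as an absolute score of 100 or more, lay at 8 of 20 endothelial members (40.0%) and at 4 of 12 mural members (33.3%). The share was 10.8% over all protein-coding genes, and 14.5% and 12.6% in the length classes of the endothelial and mural members. Of the 80 regions 62 overlapped a gene body and 18 lay beside one, with widths from 53 to 583 bp. Their median absolute score was 63.2, and that of the whole list was 49.4. Regions with a negative score made up 65.3% of the 49 endothelial regions (95% Wilson interval 51.3 to 77.1) and 72.0% of the 25 mural regions (52.4 to 85.7), and both intervals held the 67.4% of the whole list. The intervals cover the counting of regions only.

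**Figure D1:**
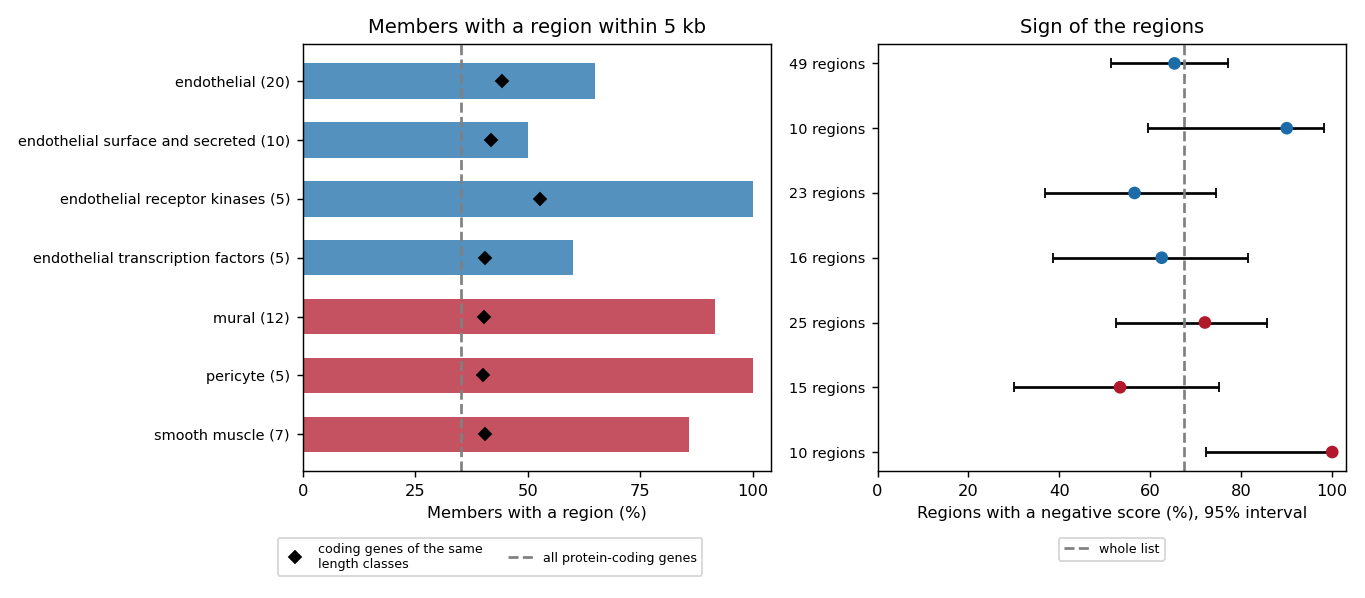
Left, percent of members that carry a region by the 5 kb rule (bars, number of members in brackets), with the share over protein-coding genes of the same length classes (diamonds) and over all protein-coding genes (dashed line, 35.1%). Right, percent of regions with a negative score and its 95% Wilson interval, with the whole list at 67.4% (dashed line). Pericyte and receptor kinase genes reach 100%, and smooth muscle regions are all negative (10 of 10).

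The endothelial receptor kinases were the most densely covered endothelial class, with a region at 5 of 5 members and 23 regions in all, or 5.01 per 100 kb. They also had the highest share with a region in their length classes (52.8%) of the endothelial classes. Kdr, the main receptor for vascular endothelial growth factor on blood vessels, stood out by number. It had 9 regions in a gene of 46.2 kb (chromosome 5, 75932827 to 75979072), 4 negative and 5 positive. Only 3 of the 4377 protein-coding genes in its length class (24.584 to 57.134 kb), Kdr among them, had as many (0.0685%).

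The regions at Kdr are given here in the direction of transcription. The first regions from the 5′ side were positive, at 2.371 kb upstream of the start site (score 59.9, 224 bp) and at 0.888 kb (43.1, 75 bp) and 10.504 kb (60.5, 64 bp) downstream of it. Along the rest of the gene the signs alternated, with -70.4 at 14.728 kb (81 bp), 73.8 at 37.188 kb (118 bp), -69.6 at 39.441 kb (95 bp) and 96.3 at 43.939 kb (142 bp). The last pair were negative, -369 at 44.353 kb and -81.4 at 45.61 kb (114 bp). The region of -369 spans 583 bp (chromosome 5, 75933520 to 75934102) near the 3′ end of the gene. It was the strongest and widest of all 80, and ranked 207 of 34139 by absolute score. It lies 0.273 kb from the positive region of 96.3, and the signs differ. Both signs at 1 gene are common at this number, as 90.9% of protein-coding genes with 9 or more regions carried both.

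Flt1, which encodes a receptor that also acts as a decoy for the growth factor, had as many regions (9) over a much longer gene of 164.8 kb. Of these 7 were negative, the strongest with a score of -126 (283 bp) at 28.173 kb from the start site. The others with a negative score were -58.1 at 60.443 kb (112 bp), -23.2 at 91.759 kb (82 bp), -23.3 at 124.093 kb (70 bp), -43.0 at 124.328 kb (112 bp), -83.8 at 142.004 kb (152 bp) and -25.4 at 1.538 kb upstream (90 bp). Positive regions scored 63.9 at 54.086 kb (115 bp) and 44.4 at 79.718 kb (62 bp). The number at Flt1 was less rare for its length than that at Kdr, as 8.31% of genes in its class had 9 or more.

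Flt4, the receptor of lymphatic vessels, had 2 negative regions near its 3′ end, -110.1 at 36.681 kb (176 bp) and -122 at 41.105 kb (338 bp) from the start site. The angiopoietin receptor Tek and its relative Tie1 went the other way. Tek had a positive region of 430 bp with a score of 163 (chromosome 4, 94739489 to 94739918) only 0.200 kb downstream of its start site, and a second of 32.0 at 50.14 kb (59 bp). Tie1, a partner receptor of TEK, had 1 positive region with a score of 29.1 (81 bp), 1.049 kb beyond its 3′ end. Over the 5 kinases 13 of 23 regions were negative (56.5%, interval 36.8 to 74.4), with 2 members only positive, 1 only negative and 2 mixed.

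**Figure D2:**
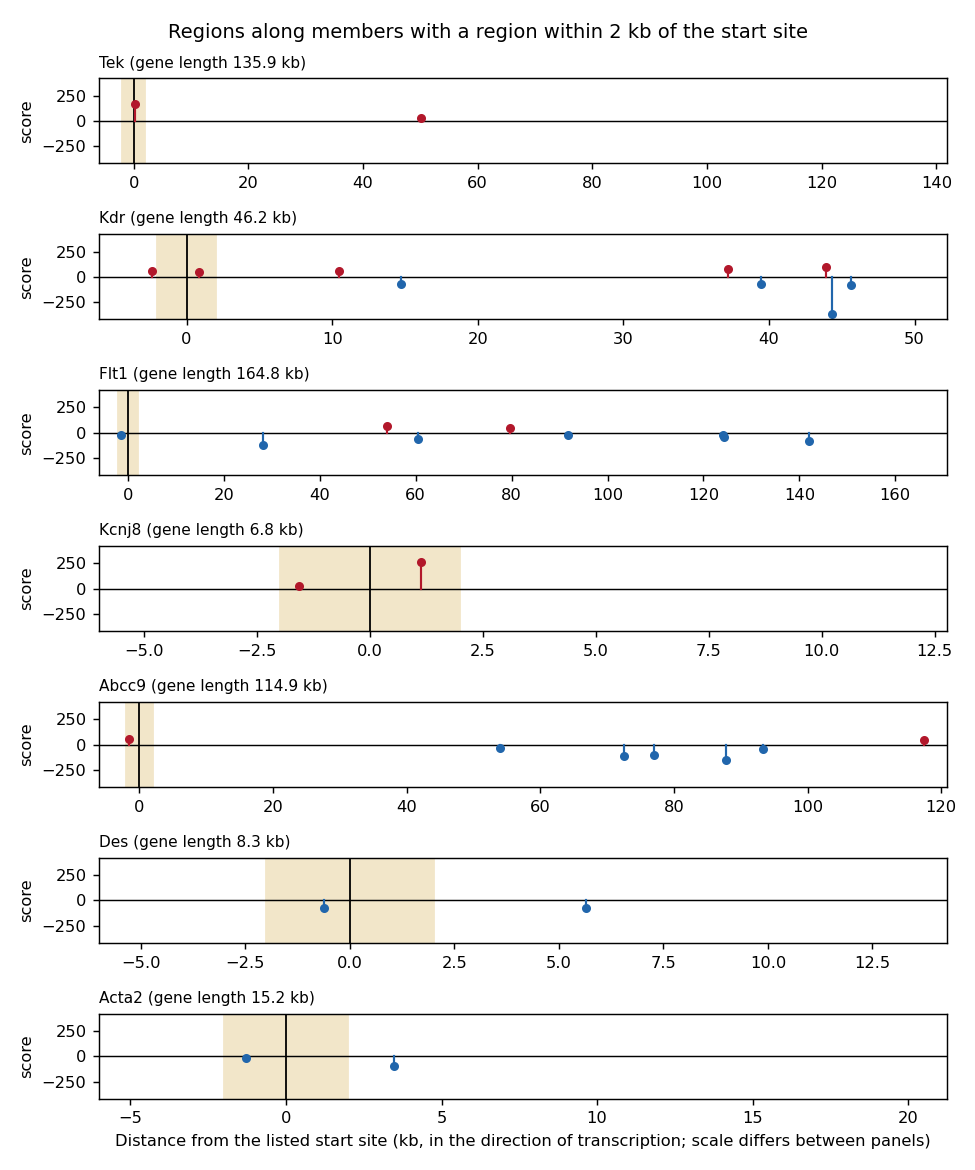
Authors' region score (vertical axis, no unit) against the distance in kb from the listed start site (horizontal axis, in the direction of transcription, a different scale in each panel) for the 7 members with a region within 2 kb of the start site (shaded). Red points are positive and blue points negative. Near the start site Tek, Kdr, Kcnj8 and Abcc9 are positive and Flt1, Des and Acta2 negative. The shaded points of Kdr, Flt1 and Acta2 and the upstream point of Kcnj8 lie below the list's median absolute score of 49.4.

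Among the endothelial transcription factors, the 2 ETS genes carried nearly all regions. Erg, whose product maintains endothelial identity, had 12 regions over 227.4 kb (chromosome 16, 95359169 to 95586600), the most of any member. In its length class 4.57% of genes had as many or more. Of the 12 regions at Erg 8 were negative. The strong ones were -156 (chromosome 16, 95382058 to 95382326), 118 (95493499 to 95493643) and -129 (95552665 to 95552842). Between them lay a run of 5 negative regions, starting at positions 95439474 (-18.6, 75 bp), 95472842 (-59.5, 117 bp), 95478976 (-57.5, 137 bp), 95486439 (-49.9, 116 bp) and 95486875 (-30.4, 100 bp), followed by positive ones at 95490487 (47.9, 188 bp) and at the region of 118. The rest were -69.3 at 95376838 (102 bp), 64.7 at 95415399 (110 bp) and, beside the 3′ end, 66.4 at 95357842 (117 bp). None of them lay within 2 kb of any of the 3 start sites listed for Erg.

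Fli1, a close relative of Erg, had 3 regions, mostly of the other sign. Its scores were -42.1 (chromosome 9, 32463703 to 32463800), 83.0 (32508118 to 32508416) and 72.8 (32543788 to 32543907), the last 0.356 kb beyond the gene. The 3 SOXF genes are short and had almost nothing. Sox7 had a single weak region of -25.5 (80 bp) 3.504 kb from the gene. Sox17 and Sox18 had none within 5 kb, and their nearest regions were -59.5 at 12.1 kb and 55.7 at 32.74 kb. A short gene seldom has a region, as in the length classes of these 3 genes 20.4% (Sox7 and Sox17) and 9.09% (Sox18) had any.

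Endothelial surface and secreted proteins had regions at 5 of 10 members, near the 41.8% of genes in the same length classes. Of their 10 regions 9 were negative (90%, interval 59.6 to 98.2, which holds the 67.4% of the whole list). Vwf, which encodes the clotting factor carrier stored in endothelial cells, had 3 negative regions. They scored -136 (161 bp, from 125597016 on chromosome 6), -48.9 (105 bp, from 125618430) and -61.0 (142 bp, from 125673866). Eng, which encodes a co-receptor for BMP9 and TGF-beta, had -40.6 (68 bp) inside the gene at 19.257 kb from the start site, and a pair beside its 3′ end, -24.0 (121 bp) and -115 (277 bp). That pair also lies inside the neighbouring gene Fpgs, so it cannot be given to Eng alone.

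Cdh5, the gene of the cadherin that seals endothelial junctions, had 1 region of -102 (388 bp, chromosome 8, 104124093 to 104124480). Emcn, the gene of a sialomucin of capillaries and veins, had 1 of -74.1 (279 bp). Pecam1, the gene of the adhesion protein CD31, held the only positive region of the class, with scores of 37.4 (140 bp) and -30.6 (86 bp), both below the list's median of 49.4. The junction genes Cldn5 and Esam, the guidance receptor gene Robo4, the secreted factor gene Egfl7 and the nitric oxide synthase gene Nos3 had no region within 5 kb. Of these, Egfl7, Robo4 and Esam had none within 50 kb either. Cldn5 had its nearest at 17.39 kb (26.2), and Nos3 at 38.94 kb (307, inside Kcnh2).

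**Figure D3:**
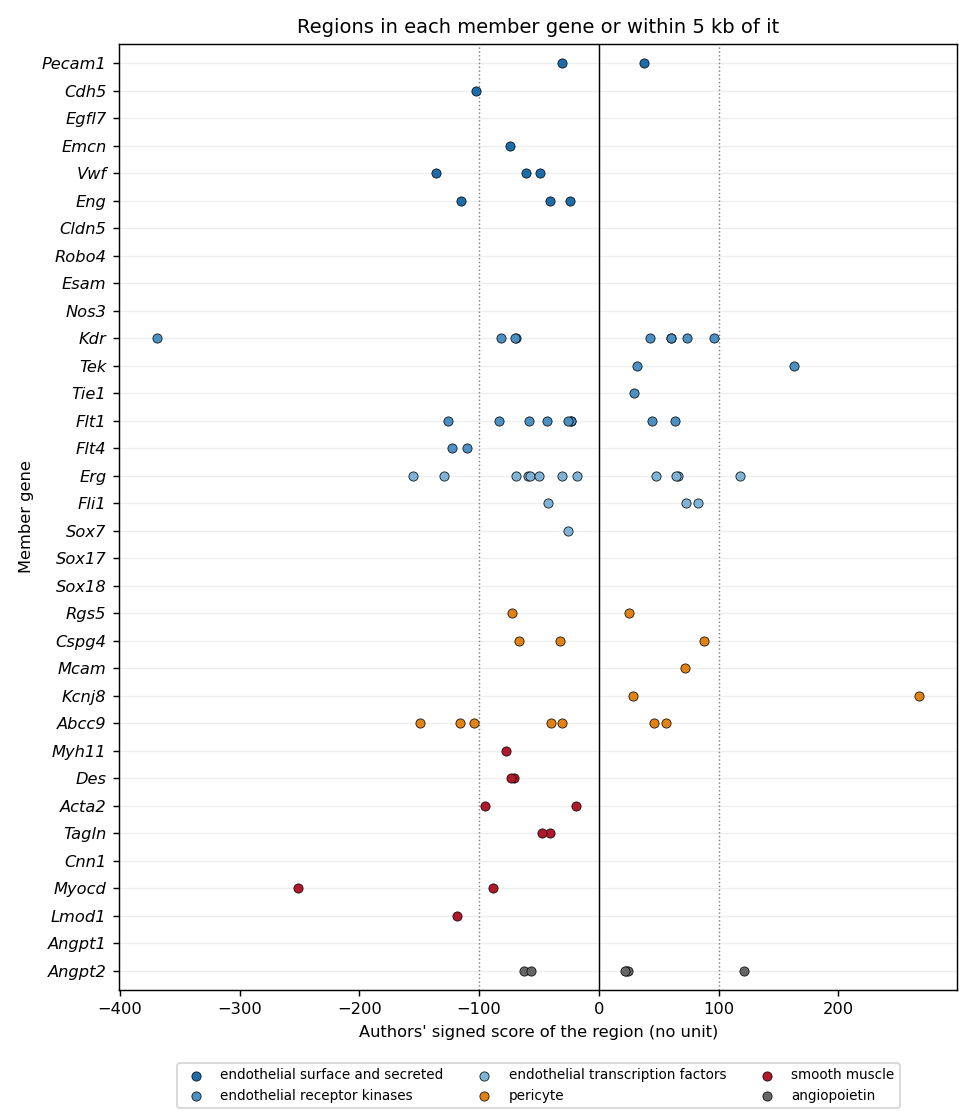
Authors' signed score (horizontal axis, no unit) of every region in a member gene or within 5 kb of it, 1 row per member, coloured by class, with dotted lines at an absolute score of 100. Kdr reaches furthest to the left (-369) and Kcnj8 furthest to the right (268), and every smooth muscle point lies left of 0.

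Pericyte genes had a region at 5 of 5 members, against 40.1% of genes in their length classes. They had no common sign, with 8 of 15 regions negative (53.3%, interval 30.1 to 75.2, which holds the 67.4% of the whole list). Kcnj8 and Abcc9 encode the pore and the regulatory subunit of an ATP-sensitive potassium channel of pericytes, and lie side by side on chromosome 6. Kcnj8 held the most positive score of the panel, 268 over 324 bp (chromosome 6, 142570172 to 142570495), 1.119 kb downstream of its start site, and a second positive region of 28.5 (80 bp) 1.572 kb upstream. The score of 268 ranked 518 of 34139 by absolute value. Both regions near the Kcnj8 start were thus positive.

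Abcc9 had 7 regions over 114.9 kb, a number reached by 12.8% of genes in its length class. They were positive at both outer sides and negative within. The outer regions scored 56.5 (141 bp), 1.513 kb upstream of the start site, and 46.2 (259 bp), 3.029 kb beyond the 3′ end on the side of Kcnj8. The 5 regions inside the gene scored -30.9 at 53.947 kb (140 bp), -116 at 72.495 kb (334 bp), -104 at 76.951 kb (193 bp), -149 at 87.78 kb (181 bp) and -40.2 at 93.309 kb (57 bp). The sign therefore changed between the Kcnj8 side and the body of Abcc9. Both signs at 1 gene are common, as 67.6% of protein-coding genes with 3 or more regions carried both. Without Abcc9, the 4 remaining pericyte genes had 3 of 8 regions negative (37.5%, interval 13.7 to 69.4, which holds the 67.4% of the whole list).

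The other pericyte genes carried weaker regions. Cspg4, the gene of the NG2 proteoglycan, had -32.5 (53 bp) 4.401 kb upstream, 87.8 (172 bp) at 17.85 kb and -66.8 (139 bp) at 28.265 kb. Rgs5, the gene of a regulator of G protein signalling, had -72.8 (179 bp) at 4.6 kb and 25.2 (75 bp) at 29.544 kb. Mcam, whose product CD146 is also found on endothelium, had 1 positive region of 71.8 (121 bp) 3.79 kb upstream. No score of these 3 genes passed 100, and their signs were split 3 to 3.

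Smooth muscle genes were of 1 sign. All 10 regions, at 6 of 7 members, had a negative score (interval 72.2 to 100), against 67.4% of the whole list. In their length classes 40.5% of genes had a region. Among protein-coding genes with 1 region 67.2% had only a negative one, and among those with 2 regions 52.3% had only negative ones. Des, Acta2, Tagln and Myocd gave 2 regions each, and the interval takes no account of regions that share a gene. The class was small and was not tested.

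Myocd, the gene of the coactivator that switches on the contractile programme, had the strongest region of the class. It scored -251 over 502 bp (chromosome 11, 65204503 to 65205004) and ranked 617 of 34139. A second region of -88.3 (130 bp, 65206639 to 65206768) followed 1.635 kb further on. Lmod1, the gene of an actin nucleator of smooth muscle, had 1 region of -119 (218 bp, chromosome 1, 135342152 to 135342369) at 17.339 kb from its start site. These 2 genes held the only regions of the class with an absolute score of 100 or more, and both regions lay inside the gene.

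Des, the gene of the muscle intermediate filament desmin, had -70.7 (110 bp) 0.622 kb upstream of its start site and -72.9 (160 bp) at 5.652 kb. Acta2, the gene of smooth muscle actin, which myofibroblasts express too, had -94.9 (162 bp) at 3.471 kb and -19.2 (67 bp) at 1.276 kb upstream. Tagln, the gene of the actin-binding protein SM22, had -40.9 (100 bp) and -47.6 (59 bp), which lay 2.978 and 3.396 kb outside the gene and inside its neighbour Sidt2. Myh11, the gene of smooth muscle myosin heavy chain, had 1 region of -77.8 (231 bp). Having 2 or more regions was uncommon for genes as short as Des and Tagln, seen in 219 of 4376 genes of their length class. Cnn1, the calponin gene, was the member with no region, and its nearest lay 12.908 kb away (-55.5).

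The angiopoietin genes differed from each other. Angpt1, which encodes the TEK ligand that mural cells release, had no region in 252.3 kb of gene or within 5 kb, although 76.2% of genes in its length class had one, and its nearest scored -23.4 at 12.206 kb. Angpt2, which encodes the ligand that endothelial cells store, had 6 regions, a number reached by 0.525% of its length class. They scored -62.6 (253 bp, from 18687706 on chromosome 8), 22.3 (56 bp, 18719168), 24.3 (266 bp, 18726724), 22.0 (74 bp, 18731150), -56.5 (87 bp, 18735275) and 122 (165 bp, 18740269). Angpt2 lies within the longer gene Mcph1, and all 6 regions lie in Mcph1 too, so they cannot be assigned to Angpt2 alone.

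A region close to a start site was more frequent at the members than elsewhere. Of the 20 members with a start site in the promoter table, 7 had a region within 2 kb of it (35.0%), against 6.14% of 17492 protein-coding genes. The members were chosen with earlier results of these data known, so this does not test an excess either. These 7 members held 8 such regions, 5 of them positive. The negative share of the 8 was 37.5% (interval 13.7 to 69.4), and this wide interval held each share that follows. Among all 1201 regions within 2 kb of a listed start site the negative share was 56.0% (interval 53.1 to 58.7). It was 67.9% among the 31708 regions over 2 kb from every listed start site, and the list's remaining regions were in neither group. Members' regions over 2 kb from their start site were negative in 35 of 51 cases (68.6%). Positive regions near the start site lay at the endothelial kinases Tek and Kdr and the pericyte channel genes Kcnj8 and Abcc9, and negative ones at the smooth muscle genes Des and Acta2 and the kinase Flt1. Those at Acta2 (-19.2), Flt1 (-25.4) and Kdr (43.1) and upstream of Kcnj8 (28.5) were weaker than the list's median absolute score of 49.4. Those at Tek, Des and Abcc9 and downstream at Kcnj8 were stronger. The sign by class was not tested.

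The promoters of the members held fewer CpG sites than promoters at large, in the median. In the 300 bases around the start site (24 promoters of 20 members), the median was 7 CpG sites for endothelial and 9 for mural promoters, against 13 for 21263 promoters of protein-coding genes. The range ran from 2 at Emcn, Robo4 and an Erg start site to 31 at a start site inside Egfl7. The form CCGGAA of the ETS site, which itself holds a CpG, was searched on both strands. It was found in 1 of 15 endothelial promoters, that of Kdr, against 18.7% of all promoters. Other forms of the ETS site were not searched, so this count does not cover ETS sites in general. The SOX core AACAAT was found in 3 of 15, at Tek, Emcn and an Erg start site, against 9.05%. The E-box CANNTG was in 8 of 9 mural promoters against 69.0%. No mural promoter held the strict CArG box, the site of serum response factor, which 1.52% of all promoters held. Overlaps between motifs were not removed, and a match or its absence describes only these windows.

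The region just inside the 5 kb limit was that of Cspg4 at 4.401 kb (-32.5), and the next beyond it was a region of -160 and 356 bp, 8.837 kb upstream of Kdr.

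Other vascular genes, 30 endothelial and 26 mural, showed a smaller share with regions than the panel. Of the endothelial ones 14 had a region (46.7%, against 34.9% in their length classes), and of the mural ones 14 (53.8%, against 41.2%). A region of absolute score 100 or more lay at 15 of the 56 (26.8%), against 10.8% of protein-coding genes and 11.7% in their length classes. The 10 strongest were Tbx2, a T-box factor gene (559, 6 of 6 regions positive), the venous receptor gene Ephb4 (-336, 2 of 2 negative), the myosin light chain kinase gene Mylk (-317, 17 of 18 negative), Notch3, a receptor gene of mural cells (-291, 1 region), the endothelial phosphatase gene Ptprb (-252, 4 of 6 negative), Plvap, a gene of fenestrated endothelium (-214, 1 region), Mecom (-195, 17 of 20 negative), the caldesmon gene Cald1 (-129, 5 of 5 negative), and the co-receptor genes Nrp1 (129, 5 of 5 positive) and Nrp2 (126, 3 of 6 positive). The negative share was 58.3% of 60 regions for the endothelial and 69.0% of 58 regions for the mural genes. Mylk and Cald1 held 22 of the 40 negative mural regions, and the other 24 mural genes had 18 of 35 negative (51.4%). Of further contractile and related genes, Synpo2 had 3 of 5 and the coactivator genes Mrtfa and Mrtfb 4 of 6 and 2 of 4 regions negative. Smtn and Myl9 had only negative regions (2 of 2 and 1 of 1), as Cald1 did, and Tpm1, Tpm2 and Actg2 had none. These genes were chosen after their values were seen.

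Short lists for the other cells that fat holds gave regions at 4 of 10 blood cell genes, 3 of 6 mesothelial genes and 6 of 8 adipose progenitor genes, where the share in their length classes was 37.6%, 31.1% and 39.2%. Strong regions lay at 0, 2 and 2 of them, against 11.4%, 7.89% and 12.3% in those classes. The blood cell count thus stood at its background. How far different cell mixtures in the 2 libraries bear on the vascular regions was not tested.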

How the data were processed

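Bisulfite libraries of CD137+ and PDGFRα+ adipose progenitors (1 each) were compared by the authors, who deposited a list of 34139 regions with a signed score. The submitters' processing notes name the build mm10. No aligner, region caller or threshold is given in the sources used here, nor is read depth, so the score serves only to rank and sign regions within this list.

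Regions were joined to genes of a RefSeq table (GRCm38.p6, 21887 protein-coding genes on the chromosomes) by at least 1 bp of overlap, with 5 kb on both sides, in Python 3.11.15 with pandas 2.3.3. All 34 symbols matched 1 gene. Start sites and sequences came from a RefSeq promoter table that held 20 of the 34 members. Strand was not used for the other 14, nor could exons and introns be told apart. Positions count from 1.

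The members and lists were chosen with earlier results of these data known. Regions were described in full for members with 3 or more regions or an absolute score of 100 or more, and other vascular genes were named when among the 10 strongest. Intervals are 95% Wilson intervals (scipy 1.17.1). The overlap counts were tested on simulated data and on the list, and differed from direct counting for 0 of 705 genes of chromosome 19. Alternatives were a window of 0 or 50 kb, strong regions only, 50% overlap, unshared regions, gene ends only, and leaving out the member with most regions.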

Additional observations from a re-analysis of the deposited data

How the results depend on the processing

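The number of members with a region stayed within 1.5 times of 13 endothelial and 11 mural under a window of 0 or 50 kb, with 50% overlap, with unshared regions and without the member with most regions (Erg and Abcc9). It fell to 8 endothelial and 4 mural members for regions of absolute score 100 or more, and to 7 endothelial and 4 mural members at gene ends (2 kb outside to 500 bp inside). Both settings use fewer regions. The negative share of endothelial regions was 81.8% (9 of 11) for strong regions and 44.4% (4 of 9) at gene ends. For mural regions it was 50% (2 of 4) at gene ends and stayed within the main interval under the 6 other settings. Applying the settings to the smooth muscle and pericyte classes was chosen after seeing the data. The smooth muscle share was 100% under every setting but the 50 kb window, where it was 77.3% (17 of 22). The pericyte share was 0 of 2 regions at gene ends and between 37.5% and 75% elsewhere. No paired analysis was possible because each group has 1 library. The unknown depth limits every score.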

Other observations

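Some of the strongest regions around the panel lay beyond the 5 kb window, in part inside neighbouring genes. Speg, a gene of striated and smooth muscle next to Des, held a positive region of 1216 over 604 bp (chromosome 1, 75388071 to 75388674), 19.492 kb from Des. It ranked 12 of 34139 by absolute score and was opposite in sign to both regions of Des. Kcnh2, a potassium channel gene near Nos3, held positive regions of 307 (403 bp) and 227 (246 bp). A region of -204 (399 bp) lay 17.821 kb upstream of Rgs5, in no protein-coding gene or the 5 kb beside one, and a region of 205 (204 bp) near Cdk9 lay 30.288 kb from Eng. Within 50 kb, all 7 regions around Vwf and all 5 around Myocd were negative. The negative share within 50 kb was 59.8% for all endothelial and 69.0% for all mural members, and 67.4% in the whole list. Some of these regions lay inside neighbouring genes, Ano2 at Vwf and Arhgap44 at Myocd. Both members were picked from the panel, and their signs were not tested.

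Among the further vascular genes, some were singled out after their values were seen. Ets1, an ETS factor gene, had 8 regions, all positive, with a strongest score of 59.2. The contractile genes Smtn and Myl9 had 2 and 1 negative regions (strongest -60.3 and -40.5). The pericyte receptor gene Pdgfrb and its ligand gene Pdgfb had 0 regions as well.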
